A study of Mus musculus with 4 samples.

Results

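The genes of the spliceosome core proteins were described in late two-cell mouse embryos of the ICR strain with and without inhibition of MYC. They were chosen by gene symbol, as all genes named for the Sm and small nuclear ribonucleoprotein (snRNP) polypeptides (Snrpa to Snrpg, Snrnp), the SF3A and SF3B subunits, the Lsm proteins and the numbered pre-mRNA processing factors (Prpf), together with U2af1, U2af2, Cdc5l, Eftud2, Ddx23 and Ddx46. The rule found 59 of the 24411 genes listed in each library. Control embryos had been cultured in KSOM with DMSO, the solvent, and treated embryos with 6 µM of 10074-G5, a small molecule that binds MYC and prevents its pairing with MAX. All embryos were produced by in vitro fertilization, and the start of the culture with DMSO or 10074-G5 is 3 h post-insemination (hpi) in the labels and 6 hpi in the study's methods. Each group had 2 libraries of polyadenylated RNA, each from 10 pooled embryos collected at 36 hpi. In such bulk libraries, fewer cells that contain a transcript and less of it in each cell cannot be told apart.

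The spliceosome removes introns from pre-mRNA and is built from snRNPs, each of which is a small nuclear RNA with its proteins. The snRNAs of U1, U2, U4 and U5 each carry a ring of 7 Sm proteins, and U6 carries a related ring of Lsm2 to Lsm8. U1 and U2 recognize the 5′ splice site and the branch point, the U4/U6.U5 tri-snRNP then joins, and the Prp19 complex accompanies the rearrangement into the active enzyme. In the mouse, splicing factors are among the genes that the embryo transcribes in quantity at major zygotic genome activation (ZGA), late in the two-cell stage. The 59 genes were sorted by particle into the Sm ring, the Lsm2 to Lsm8 ring, U1, U2, the tri-snRNP, the Prp19 complex with other numbered factors, the minor U11/U12 snRNP, and the Lsm proteins that lie outside the U6 ring.

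Before the members are described, the state of the libraries has to be given. The expected counts, which are RSEM's estimates of the fragments of each gene, summed to between 18206584 and 20718690 per library. Control replicate 1 stood apart from the other 3 libraries. The 9 marker genes of the two-cell embryo, such as the Zscan4 genes and Zfp352, and 13 transcripts stored in the oocyte were all detected in every library. Their median level, as log2 CPM (counts scaled to library size with TMM factors) minus the gene's own mean, was -1.23 and -1.12 in control replicate 1, 0.17 and 0.06 in control replicate 2, and between 0.35 and 0.65 in the treated libraries. Of 10 markers of cumulus or granulosa cells, Ptx3, Amh, Foxl2 and Inha were at 0 in every library. The others were detected, though not all in every library. Tnfaip6 reached 3.95 FPKM in control replicate 2, and Cyp19a1 reached 2.94 FPKM in treated replicate 1. The summed level of all 10 markers was 1.15 and 5.82 FPKM in control and 7.31 and 2.49 FPKM in treated libraries. FPKM are fragments scaled to transcript length and to library size. Not all oocyte transcripts followed their median. Dppa3 and Zp3 were highest in control replicate 1, at 23548 and 205 FPKM, against 15004 and 75.1 FPKM in control replicate 2, while the others were lowest there. With Dppa3, the summed level of the oocyte list was 24515 and 17469 FPKM in control and 16003 and 16101 FPKM in treated libraries. Of 6 markers of sperm and spermatids, Prm1, Tnp2 and Smcp were at 0 throughout. The summed level of all 6 was 1.56 and 4.44 FPKM in control and 15.8 and 9.19 FPKM in treated libraries. Most of it was Prm2, at 1.56 and 4.44 FPKM in control and 15.8 and 5.88 FPKM in treated libraries. The part of these differences between libraries in the results was not tested, and log2FC values without control replicate 1 are given beside the main ones where they differ by more than 1.5-fold.

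Most spliceosome genes were lower in 10074-G5-treated embryos. One gene, Prpf40b, had too few counts to be tested, with 17 counts in treated replicate 1 and 0 in the other libraries, where a count of 0 allows up to 3. Of the 58 tested genes, 50 (86.2%) had a negative log2 fold change (log2FC, treated over control), against 48.5% of all 13549 tested genes. The median log2FC was -0.74 for the 58 genes and 0.04 for all genes. In FPKM, both treated libraries lay below both control libraries for 35 of the 58 genes (60.3%), against 25.4% of all genes, and above both for 5, against 31.4% of all genes. On the TMM-scaled CPM these counts were 39 and 5, against 28.3% and 28.9% of all genes.

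Few of these differences passed a test for a single gene. When a call required a change of over 2-fold together with a Benjamini-Hochberg adjusted p under 0.05, the quasi-likelihood test of edgeR found 0 of the 58 genes, and 0.0% of all genes, with a smallest adjusted p of 0.333 over all genes. At an unadjusted p under 0.05, 11 of the genes were lower (19.0%) against 10.1% of all genes, and 1 was higher against 4.72%. A log2FC below -1 was found for 13 of the genes (22.4%), against 17.8% of all genes. Limma on log2(FPKM + 1), which tested 54 of them, also called 0. In both directions together, limma had 7 at an unadjusted p under 0.05 (13.0%), against 16.8% of all 10625 genes it tested. The edgeR share in both directions together was 20.7%, against 14.9% of all genes. The limma share thus lay below its background and the edgeR share above its own. DESeq2 was also run with effective transcript lengths as offsets, and its calls at the same thresholds are named the DESeq2 calls. They held 3 of the 58 genes, all lower (5.17%), against 3.17% of all genes, and no higher gene, against 0.613%. The 3 genes were Snrpa1, Snrnp200 and Lsm12, of U2, of the tri-snRNP and from outside the U6 ring. The shares called were thus close to the background, and the counts departed from it mainly in the direction of differences that were mostly under 2-fold.

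**Figure D1:**
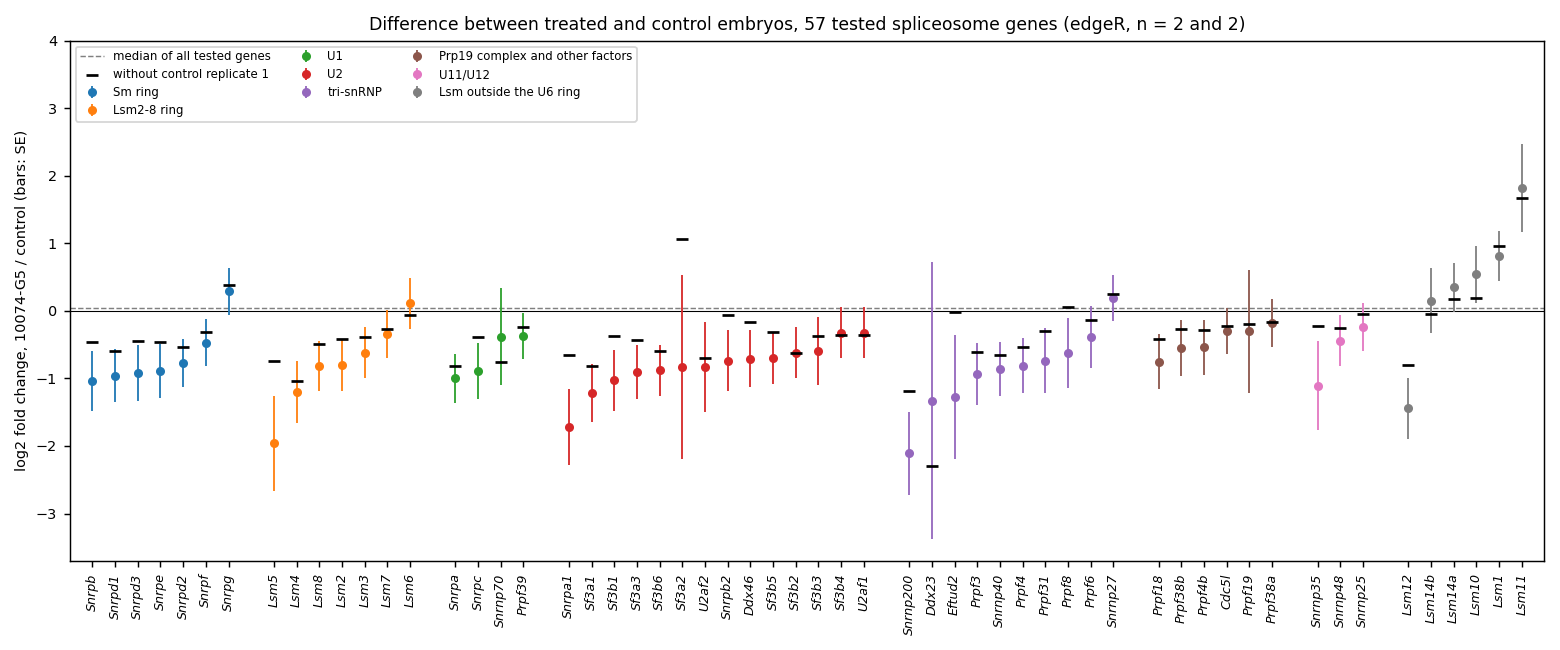
The log2 fold change of 57 of the 58 tested spliceosome genes (points, with the standard error of the edgeR fit as bars) is plotted by particle, with the value without control replicate 1 as a black dash and the median of all tested genes, 0.04, as a dashed line. Of the points, 49 lie below 0, most dashes lie closer to 0 than their points, and 5 of the 6 Lsm genes outside the U6 ring lie above 0.

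Much of the size of the differences came from 1 library. Control replicate 1 lay farther than control replicate 2 from the mean of the treated libraries for 51 of the 58 genes (87.9%), against 77.2% of all genes. Without control replicate 1, the same number of genes, 50, had a negative log2FC, but the median was -0.36. Without control replicate 2 it was -1.0, and it was -0.64 and -0.81 without treated replicates 1 and 2. The level of expression also moved with the difference. Among all tested genes, the median log2FC was 0.18 below 10 FPKM, -0.03 from 10 to 30, -0.18 from 30 to 100 and -0.45 from 100 FPKM upward. The spliceosome genes were at -0.68, -0.75, -0.86 and -0.72 in the same ranges, with 16, 7, 11 and 24 genes. The distance between the spliceosome genes and all genes was therefore smallest among the 24 highly expressed ones, of which 15 had treated libraries below both controls, against 50.3% of all genes at that level. By effective transcript length, the medians of all genes lay between -0.10 (under 1000 bases) and 0.15 (4000 bases and more), and those of the spliceosome genes between -0.83 and -0.55 in each of 4 ranges of length.

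**Figure D2:**
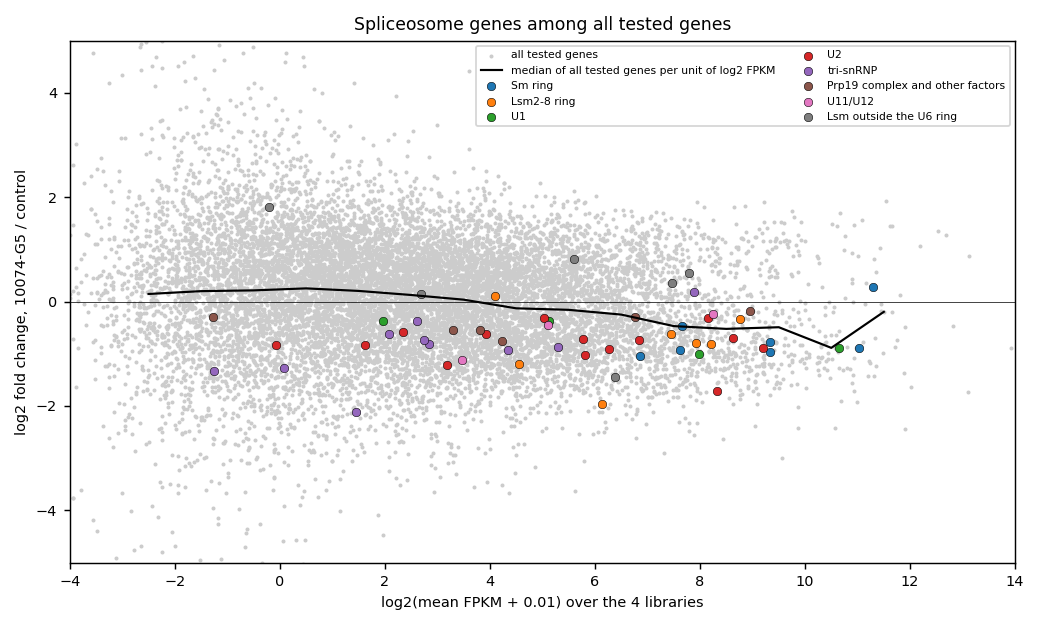
The log2 fold change by edgeR (vertical axis) is plotted against the log2 of the mean FPKM over the 4 libraries (horizontal axis) for all tested genes (grey, those beyond the axes are not drawn) and 57 spliceosome genes by particle (colours), with the median of all genes per unit as a black line. The line falls from above 0 at low levels to below 0 at high levels, and most spliceosome genes lie below it.

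The Sm ring encloses the Sm site of the snRNAs, and its 7 proteins are present once each. Their transcripts were abundant but far from equal. The median of the ring was 831 and 711 FPKM in control and 419 and 493 FPKM in treated libraries. Snrpb was the lowest in every library, and the highest member exceeded it 16.4- and 19.6-fold in control and 42.9- and 29.3-fold in treated embryos. Of the 7 genes, 6 were lower in treated embryos with no overlap between the groups, against 25.4% of all genes and 50.3% of those at 100 FPKM or more. Snrpg was higher, also with no overlap, against 31.4% of all genes.

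Snrpb, on chromosome 2 of GRCm38 (mm10) from 130171636 to 130179382, had 186 and 113 FPKM in control and 68.4 and 95.9 FPKM in treated embryos. Its log2FC came to -1.04 ± 0.44 (SE, edgeR adjusted p = 0.335). Snrpd1, on chromosome 18 from 10617796 to 10628230, had 933 and 711 FPKM in control and 419 and 523 FPKM in treated embryos, a log2FC of -0.96 ± 0.39 (SE, edgeR adjusted p = 0.333). These were the members of the ring with an unadjusted p under 0.05 (0.0486 and 0.0421), and without control replicate 1 their log2FC was -0.46 and -0.59. Snrpe had 3058 and 2181 FPKM in control and 1403 and 1724 FPKM in treated embryos. Snrpd2, Snrpd3 and Snrpf had a log2FC of -0.77, -0.92 and -0.47, and of -0.54, -0.45 and -0.31 without control replicate 1. For Snrpf the difference was the smallest of the 6, with 227 and 225 FPKM in control and 168 and 192 FPKM in treated embryos.

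Snrpg, on chromosome 6 from 86371540 to 86378902, had the highest mean level of all 59 genes. It had 2109 and 2228 FPKM in control and 2934 and 2811 FPKM in treated embryos, or 2169 ± 83.5 and 2872 ± 86.6 FPKM (SD, n = 2 each). The groups did not overlap and each pair of replicates was close in FPKM, yet the log2FC came to 0.29 ± 0.35 (SE, edgeR adjusted p = 0.697). In relation to Snrpe, its neighbour in the ring, Snrpg was at a ratio of 0.69 and 1.02 in control and of 2.09 and 1.63 in treated libraries. This pair was chosen after its values were seen, and the ratio was not tested. Snrpg had the shortest effective length of the ring, 131 bases, and it shares at least 200 bases at 95% identity or more with 3 other annotated genes, so that its level is uncertain. Such shared sequence was found for 18 of the 59 genes, in the Sm ring also for Snrpd1, Snrpd2, Snrpe and Snrpf. Not all of it lies in copies elsewhere. For Prpf39 the only such gene, Fkbp3, overlaps it, and Ccdc38, which overlaps Snrpf, is among those found for Snrpf. Some members also overlap other annotated genes, as Snrpa does with BC024978, and the sources do not state that reads were counted by strand, so that such neighbours are not told apart for certain.

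**Figure D3:**
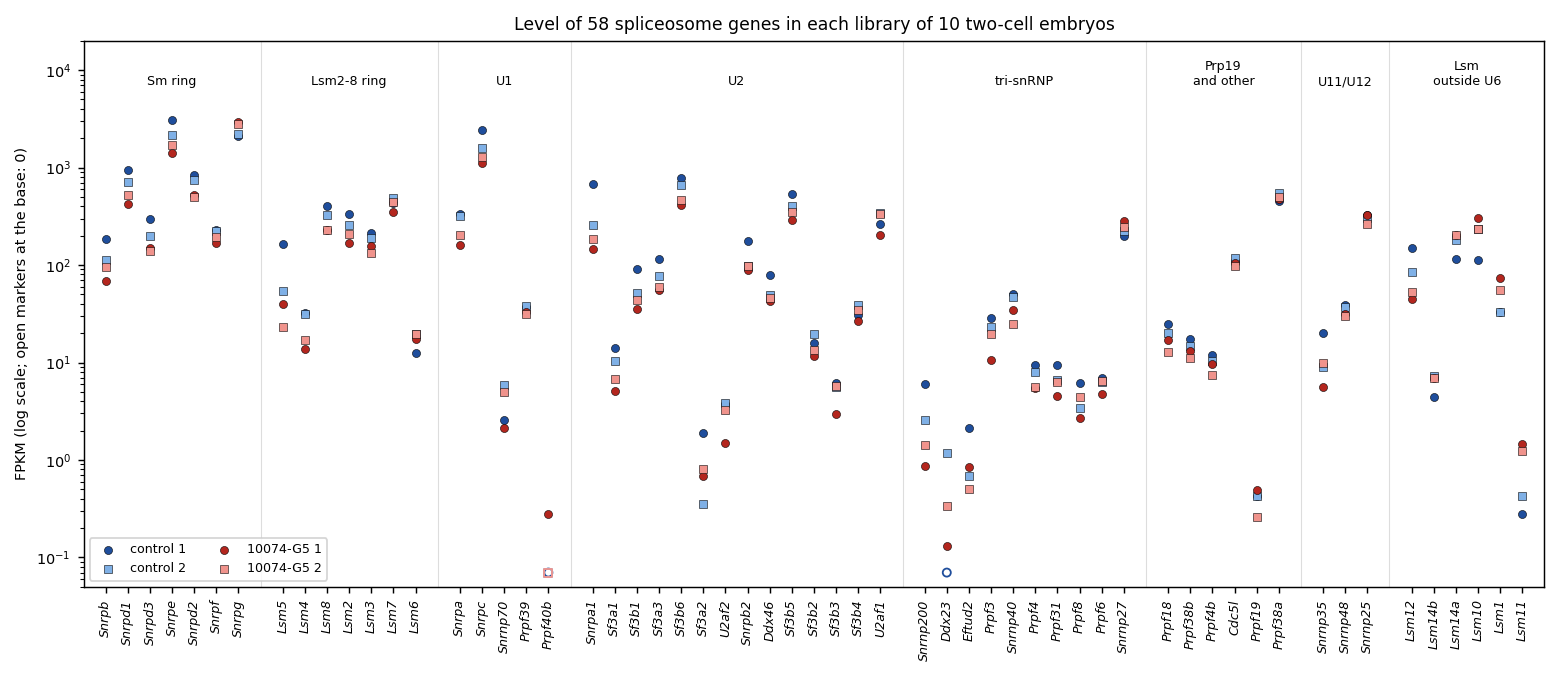
The FPKM of 58 of the 59 genes (vertical axis, log scale) is plotted for each library, with control libraries in blue and 10074-G5-treated libraries in red, replicate 1 dark and replicate 2 light. Levels span from under 1 FPKM (such as Prpf19 in every library, and Ddx23, Sf3a2 and Lsm11 in some) to above 2000 FPKM. The latter are Snrpg in every library, Snrpe in the control libraries and Snrpc in control replicate 1. Dark blue marks the highest library in most columns.

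The ring of Lsm2 to Lsm8 binds the 3′ end of U6 snRNA. Its transcripts were at a lower level than those of the Sm ring, with a median of 214 and 191 FPKM in control and 155 and 134 FPKM in treated libraries. Of its 7 genes, 6 had a negative log2FC, against 48.5% of all genes, and 5 had treated libraries below both controls in FPKM, against 25.4% of all genes and 50.3% of those at 100 FPKM or more. Lsm5, on chromosome 6 from 56701063 to 56704699, had 164 and 53.8 FPKM in control and 40.1 and 23.2 FPKM in treated embryos. Its log2FC came to -1.96 ± 0.70 (SE, edgeR adjusted p = 0.333), but -0.74 without control replicate 1, and 2 annotated pseudogenes carry near-identical sequence. Lsm4, on chromosome 8 from 70673231 to 70678752, differed in another way. It had 32.2 and 31.7 FPKM in control and 13.8 and 16.9 FPKM in treated embryos, so that both groups were tight and apart in FPKM. In TMM-scaled CPM it had 24.4 and 20.2 in control and 8.86 and 10.6 in treated embryos. Its log2FC of -1.20 ± 0.46 (SE, edgeR adjusted p = 0.333) stayed at -1.04 without control replicate 1.

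The other members of this ring differed less. Lsm8, which sets the nuclear ring apart from the cytoplasmic one, had 400 and 325 FPKM in control and 229 and 230 FPKM in treated embryos, a log2FC of -0.81 ± 0.37 (SE, edgeR adjusted p = 0.347) that was -0.49 without control replicate 1. Lsm2 and Lsm3 had a log2FC of -0.80 and -0.62 (-0.42 and -0.39 without that library), and neither had overlapping groups. Lsm7, the highest of the ring, had 438 and 489 FPKM in control and 351 and 448 FPKM in treated embryos, which overlap. Lsm6 had 12.4 and 19.4 FPKM in control and 17.3 and 19.8 FPKM in treated embryos, with a log2FC of 0.11 that turned to -0.06 without control replicate 1. Its level is uncertain, because 3 annotated pseudogenes carry near-identical sequence.

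U1 pairs with the 5′ splice site. Snrpa (U1-A) binds a stem-loop of U1 snRNA, Snrpc (U1-C) steadies the pairing with the splice site, Snrnp70 (U1-70K) binds another stem-loop, and Prpf39 is an associated factor. All 5 tested genes had a negative log2FC, against 48.5% of all genes, and 4 had treated libraries below both controls, against 25.4%. Snrpa had 333 and 317 FPKM in control and 161 and 201 FPKM in treated embryos, or 325 ± 11.3 and 181 ± 28.2 FPKM (SD, n = 2 each), a ratio of 1.80. Its log2FC came to -1.0 ± 0.36 (SE, edgeR adjusted p = 0.333) and -0.81 without control replicate 1. Its 2 control libraries were nearly alike in FPKM, and had 411 and 329 TMM-scaled CPM. In addition, 2 pseudogenes with near-identical sequence make its level uncertain. Snrpc, the most abundant of the U1 genes and one with 3 annotated copies, had 2413 and 1580 FPKM in control and 1125 and 1286 FPKM in treated embryos, a log2FC of -0.89 ± 0.42 (SE, edgeR adjusted p = 0.357) that was -0.38 without control replicate 1. Prpf39 had 37.3 and 38 FPKM against 33.1 and 31.2 FPKM.

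The transcript of U1-70K was scarce. Snrnp70 had 2.55 and 5.91 FPKM in control and 2.12 and 4.96 FPKM in treated embryos, so that Snrpc exceeded it from 259- to 946-fold across the libraries. The order of Snrnp70 was that of the replicate numbers rather than of the groups, and its log2FC of -0.38 ± 0.72 (SE) was -0.75 without control replicate 1 and 0.16 without control replicate 2.

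U2 binds the branch point. Its specific proteins are Snrpa1 (U2-A′) and Snrpb2 (U2-B″), which sit together on a stem-loop of U2 snRNA, the 3 SF3A subunits, and the SF3B subunits, which clamp the branch point. U2af1 and U2af2 mark the 3′ splice site before U2 arrives, and Ddx46 is a helicase of this step. All 14 genes had a negative log2FC, from -1.72 to -0.32, against 48.5% of all genes. In FPKM 9 had treated libraries below both controls, against 25.4% of all genes, and in TMM-scaled CPM 11, against 28.3%. Their median log2FC was -0.79, and -0.37 without control replicate 1.

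Snrpa1, on chromosome 7 from 66060336 to 66074587, was the U2 gene with the largest difference and one of the DESeq2 calls. It had 685 and 260 FPKM in control and 147 and 183 FPKM in treated embryos. Its log2FC was -1.74 ± 0.54 by DESeq2 (SE, adjusted p = 0.0318) and -1.72 ± 0.56 by edgeR (SE, adjusted p = 0.333). The control libraries differed from each other more than control replicate 2 differed from the treated libraries, and the log2FC was -0.65 without control replicate 1. Over the alternatives the adjusted p of Snrpa1 ranged from 0.00111 to 0.992. Snrpb2, its partner on U2 snRNA, had 177 and 97.0 FPKM in control and 88.2 and 97.1 FPKM in treated embryos (log2FC of -0.74, and -0.06 without control replicate 1). The ratio of Snrpa1 to Snrpb2 was 3.88 and 2.68 in control and 1.67 and 1.89 in treated libraries. This pair was also chosen after its values were seen.

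Among the SF3A subunits, Sf3a1 had 14 and 10.3 FPKM in control and 5.11 and 6.70 FPKM in treated embryos, a log2FC of -1.21 ± 0.43 (SE, edgeR adjusted p = 0.333) that was -0.81 without control replicate 1. Sf3a3 had a log2FC of -0.90 with no overlap, and of -0.43 without control replicate 1. Sf3a2 had counts of 51, 9, 20 and 22 in control replicates 1 and 2 and treated replicates 1 and 2, and its log2FC changed from -0.83 to 1.06 without control replicate 1. In SF3B the levels of the subunits lay far apart. Sf3b6, the small subunit that contacts the branch-point adenosine, had 790 and 668 FPKM in control and 413 and 469 FPKM in treated embryos (log2FC of -0.88 ± 0.38 SE, edgeR adjusted p = 0.336). Sf3b3 had 6.12 and 5.58 FPKM in control and 2.96 and 5.69 FPKM in treated embryos, which overlap. Sf3b1, the largest subunit and a frequent site of mutation in blood cancers, had 92.0 and 51.7 FPKM in control and 35.5 and 44.3 FPKM in treated embryos, a log2FC of -1.03 that was -0.37 without control replicate 1. The ratio of Sf3b6 to Sf3b1 lay between 8.59 and 12.9 in the 4 libraries, with overlapping groups. Sf3b4 and U2af1 had the smallest differences of the U2 genes, both with a log2FC of -0.32 and overlapping groups in FPKM. In TMM-scaled CPM the groups of U2af1 also overlapped, but Sf3b4 had 51.2 and 54.5 in control and 37.5 and 47.3 in treated embryos. For Sf3b4, 1 annotated pseudogene carries near-identical sequence. The partners U2af1 and U2af2 were at different levels, with 265 and 343 FPKM against 3.74 and 3.85 FPKM in control embryos. Both carry annotated copies, 3 for U2af1 and 1 for U2af2, and their levels are uncertain.

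The tri-snRNP brings U4, U5 and U6 into the spliceosome. Prpf3, Prpf4 and Prpf31 belong to U4/U6, Prpf8, Snrnp200, Eftud2, Prpf6, Snrnp40 and Ddx23 to U5, and Snrnp27 to the assembled particle. Most of these transcripts were scarce, and the median of the 10 genes was 8.21 and 6.45 FPKM in control and 4.67 and 5.95 FPKM in treated libraries. Of the 10 genes, 9 had a negative log2FC, against 48.5% of all genes, and 5 had treated libraries below both controls, against 25.4%. Snrnp200, on chromosome 2 from 127208386 to 127240453, encodes Brr2, the helicase that unwinds U4 from U6. It had 5.97 and 2.59 FPKM in control and 0.87 and 1.41 FPKM in treated embryos, from counts of 739, 305, 116 and 180. Its log2FC was the lowest of the 58 genes, -2.13 ± 0.64 by DESeq2 (SE, adjusted p = 0.0263) and -2.11 ± 0.62 by edgeR (SE, adjusted p = 0.333). It was -1.19 without control replicate 1 and -1.76 without treated replicate 1, and the adjusted p of Snrnp200 ranged from 0.00306 to 0.992 over the alternatives.

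For the other large U5 proteins the groups overlapped. Prpf8, the scaffold of the catalytic core, had 6.22 and 3.43 FPKM in control and 2.71 and 4.45 FPKM in treated embryos, with overlapping groups and a log2FC of -0.62 that was 0.06 without control replicate 1. Eftud2, the GTPase of U5, had counts of 125, 38, 54 and 30, and Ddx23, the helicase that displaces U1, had 0, 54, 7 and 17. At these counts both log2FC values, -1.27 ± 0.92 (SE) and -1.33 ± 2.05 (SE), had large errors, with an unadjusted p of 0.207 and 0.535 by edgeR, and were -0.02 and -2.30 without control replicate 1. Prpf3, Snrnp40, Prpf4 and Prpf31 had no overlap between the groups, with a log2FC from -0.93 to -0.74, and from -0.65 to -0.30 without control replicate 1. Snrnp27, on chromosome 6 from 86675169 to 86684491, was the exception in this group. It had 200 and 223 FPKM in control and 285 and 243 FPKM in treated embryos, with no overlap and a log2FC of 0.19 ± 0.34 (SE, edgeR adjusted p = 0.81).

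Cdc5l and Prpf19 of the Prp19 complex were grouped with Prpf4b, Prpf18, Prpf38a and Prpf38b, which act before or after activation, and none of these genes had an unadjusted p under 0.05. All 6 had a negative log2FC, against 48.5% of all genes, from -0.75 (Prpf18, a factor of the second step, -0.41 without control replicate 1) to -0.18 (Prpf38a, a factor of the precatalytic spliceosome). Prpf38a, the most abundant, had 457 and 542 FPKM in control and 475 and 495 FPKM in treated embryos. Cdc5l had 109 and 119 FPKM against 105 and 98.6 FPKM, and it is uncertain because 10 other annotated genes carry near-identical sequence. Prpf19, the ubiquitin ligase that names the complex, had between 0.26 and 0.49 FPKM, from 30 to 60 counts, and 1 annotated pseudogene carries near-identical sequence. The minor spliceosome, which removes a rare class of introns, was represented by Snrnp25, Snrnp35 and Snrnp48. Snrnp25 had 325 and 303 FPKM in control and 325 and 261 FPKM in treated embryos, Snrnp48 had 39.3 and 37.0 against 31.8 and 30.3 FPKM, and Snrnp35 had 20.1 and 9 against 5.55 and 9.81 FPKM. Only Snrnp48 of these 3 had no overlap between the groups, with both treated libraries below both controls, against 25.4% of all genes.

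The Lsm genes outside the U6 ring were a mixed set, and edgeR called none of them. Lsm1 takes the place of Lsm8 in the cytoplasmic ring, which binds deadenylated mRNA and promotes decapping. Lsm10 and Lsm11 replace 2 Sm proteins in the ring of U7, the snRNP that cuts the 3′ end of histone pre-mRNA. Lsm14a and Lsm14b act in mRNA storage and repression of translation. Of these 6 genes, 5 had a positive log2FC, against 51.5% of all genes, and their median was 0.44, or 0.18 without control replicate 1, when Lsm14b was also below 0. In 3 of them, Lsm1, Lsm11 and Lsm14a, both treated libraries lay above both controls, against 31.4% of all genes, and in Lsm10 and Lsm14b the groups overlapped.

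Lsm1, on chromosome 8 from 25785318 to 25803975, had 32.9 and 33.1 FPKM in control and 72.9 and 55.4 FPKM in treated embryos, or 33.0 ± 0.141 and 64.2 ± 12.4 FPKM (SD, n = 2 each). The control libraries were alike in FPKM, and had 78.4 and 66.3 TMM-scaled CPM. The log2FC of 0.82 ± 0.37 (SE, edgeR adjusted p = 0.343) was 0.96 without control replicate 1. The ratio of Lsm1 to Lsm8, the subunits that distinguish the cytoplasmic from the nuclear ring, was 0.0821 and 0.102 in control and 0.318 and 0.241 in treated libraries. On the log2 scale the ratio was -3.45 ± 0.22 in control and -1.85 ± 0.28 in treated embryos (SD, n = 2 each), a difference of 1.60. With 2 libraries against 2, an exact two-sided permutation test cannot give a p under 0.333, and the pair was chosen after its values were seen, so the difference was not tested. Lsm11, on chromosome 11 from 45928266 to 45944996, had 0.28 and 0.43 FPKM in control and 1.47 and 1.25 FPKM in treated embryos, from counts of 33 and 48 against 188 and 153. Its log2FC came to 1.82 ± 0.65 (SE, edgeR adjusted p = 0.333) and remained at 1.67 without control replicate 1, and DESeq2 gave it no adjusted p. Lsm10, its partner in U7, had 113 and 237 FPKM in control and 303 and 232 FPKM in treated embryos, which overlap. Lsm14a had 114 and 181 FPKM against 203 and 204 FPKM, and Lsm14b 4.42 and 7.24 against 6.98 and 7.01 FPKM. Lsm12 stood against the others of this group. This gene, on chromosome 11 from 102162497 to 102186268, encodes an Lsm-domain protein that is not a subunit of the U6 ring. It had 149 and 85.7 FPKM in control and 44.8 and 53.3 FPKM in treated embryos, a log2FC of -1.45 ± 0.49 by DESeq2 (SE, adjusted p = 0.0499) and -1.44 ± 0.45 by edgeR (SE, adjusted p = 0.333). It was -0.80 without control replicate 1, the adjusted p of Lsm12 ranged from 0.00167 to 0.992 over the alternatives, and 1 annotated copy makes its level uncertain.

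**Figure D4:**
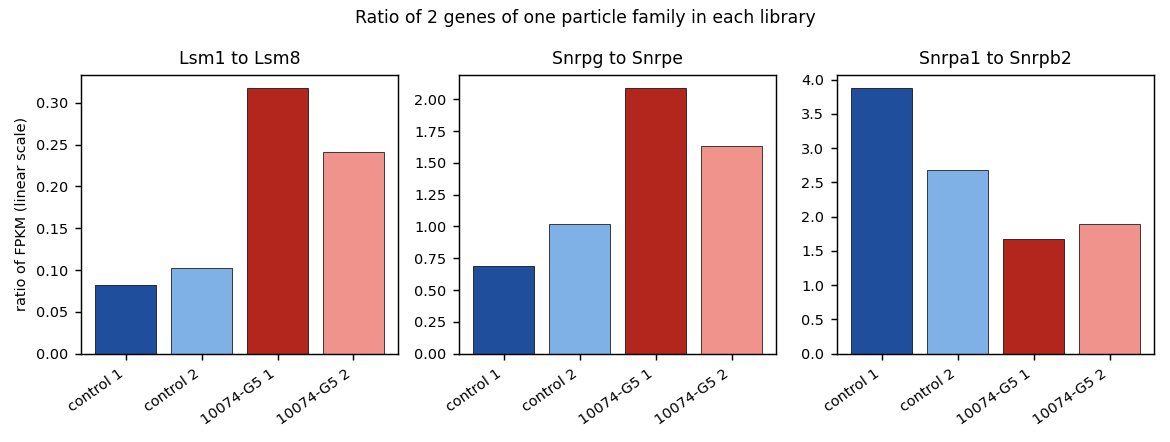
The ratio of the FPKM of 2 genes is plotted for each library (bars from 0, linear scale, 1 bar per library), for Lsm1 to Lsm8, Snrpg to Snrpe and Snrpa1 to Snrpb2. The first ratio is 0.0821 and 0.102 in control and 0.318 and 0.241 in treated libraries, the second also lies higher and the third lower in both treated libraries.

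Between the particles the differences were alike in size, without adjustment for the level of the genes. Among all tested genes, the median log2FC was 0.18 below 10 FPKM and -0.45 from 100 FPKM upward. For the particles, the medians were as follows. The median log2FC was -0.89 in the Sm ring, -0.80 in the Lsm2 to Lsm8 ring, -0.89 in U1, -0.79 in U2 and -0.83 in the tri-snRNP, and these medians lay closer together than the replicates of the controls did within any of them. In centred log2 CPM, the median of the Sm ring was 0.42 ± 0.52 in control and -0.33 ± 0.04 in treated embryos (SD, n = 2 each). For U2 it was 0.40 ± 0.46 and -0.36 ± 0.17, and for the tri-snRNP 0.38 ± 0.43 and -0.26 ± 0.24. For the Lsm2 to Lsm8 ring it was 0.39 ± 0.39 and -0.39 ± 0.02, and for U1 0.37 ± 0.42 and -0.44 ± 0.14. In all 5, control replicate 1 was highest, at 0.66 to 0.79, control replicate 2 was between 0.06 and 0.12, and both treated libraries were below 0. The Prp19 complex with other factors (-0.42) and U11/U12 (-0.44) had smaller medians of the log2FC, and the Lsm genes outside the U6 ring had a positive one (0.44). Without control replicate 1, the medians of the same 5 particles were -0.46, -0.42, -0.43, -0.37 and -0.42. Those of the Prp19 complex with other factors, of U11/U12 and of the Lsm genes outside the U6 ring were then -0.25, -0.22 and 0.18. The particles differed more in the median level of their transcripts, which in control embryos ranged from 831 and 711 FPKM in the Sm ring to 8.21 and 6.45 FPKM in the tri-snRNP. Single genes did not follow these medians. In control replicate 1, U2 genes ran from 1.91 FPKM (Sf3a2) to 790 FPKM (Sf3b6). In the same library Snrnp27 of the tri-snRNP, at 200 FPKM, lay above Snrpb of the Sm ring, at 186 FPKM.

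**Figure D5:**
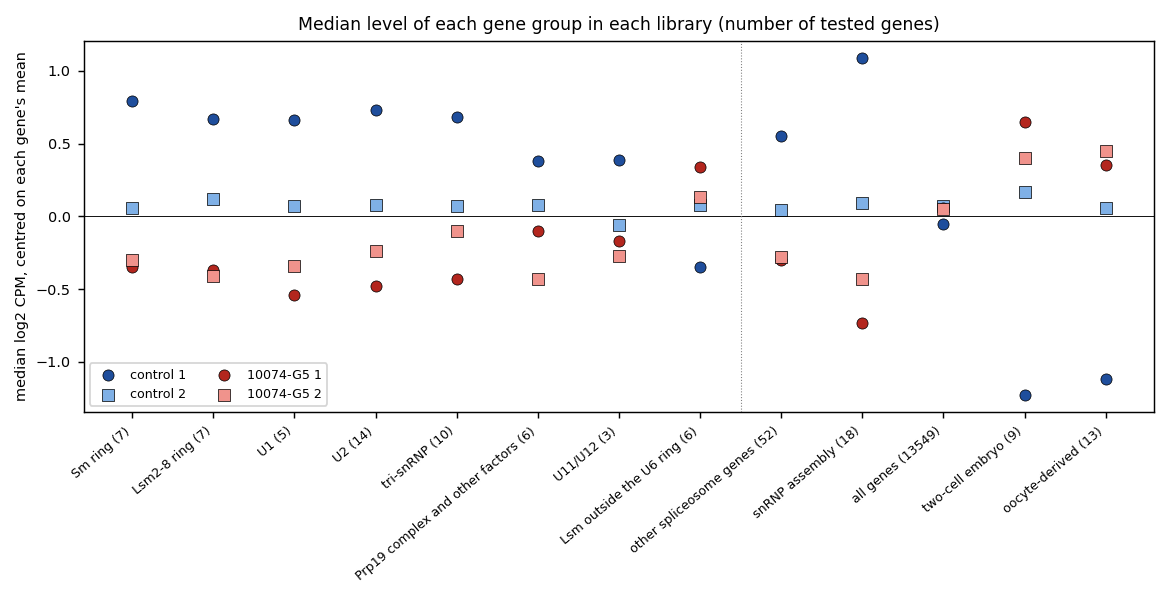
The median log2 CPM of each group of genes, after subtraction of the gene's own mean, is plotted per library (vertical axis, log2 units), with the number of tested genes in brackets. In the 5 particles on the left control replicate 1 lies at 0.66 to 0.79 and both treated libraries below 0, and the two-cell and oocyte-derived lists on the right have control replicate 1 at -1.23 and -1.12.

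MYC pairs with MAX on the E-box, whose canonical form is CACGTG, so the promoters were searched for it. They were also searched for the variant E-box CACGCG and for CCGGAAG, a core bound by ETS factors, each on both strands of the 250 bases before the start of transcription. RefSeq promoters of GRCm38.p6 were matched for 46 of the 59 genes, with 54 promoters. The E-box CACGTG was in 5 of them (9.26%), against 6.02% of all 32851 promoters and 8.16% of the promoters of tested genes. These 5 belong to 4 genes, Snrpa, Prpf3, Prpf39 and Prpf40b. The first 3 had a negative log2FC, as did 50 of the 58 tested members (86.2%), and Prpf40b was not tested. The variant CACGCG was in 18 of the 54 promoters (33.3%), against 7.62% of all promoters and 13.3% of those of tested genes. CCGGAAG was in 16 (29.6%), against 6.91% and 12.5%. A negative log2FC was found for 13 of the 14 genes with CACGCG and for 13 of the 15 genes with CCGGAAG. The motifs were chosen with the values known, several promoters belong to the same gene, and a match is not a binding site. The promoters of Snrpa, with 2 canonical E-boxes and a difference that held without control replicate 1, of Snrpa1 and Snrnp200, which DESeq2 called, of Lsm5, with the largest difference among the ring genes, and of Snrpg, which was higher, are shown here 5′ to 3′ on the strand of the gene. Capitals mark these motifs in either orientation. Each run ends at the base before the start of transcription.
Snrpa, chr7:27196272-27196521, minus strand: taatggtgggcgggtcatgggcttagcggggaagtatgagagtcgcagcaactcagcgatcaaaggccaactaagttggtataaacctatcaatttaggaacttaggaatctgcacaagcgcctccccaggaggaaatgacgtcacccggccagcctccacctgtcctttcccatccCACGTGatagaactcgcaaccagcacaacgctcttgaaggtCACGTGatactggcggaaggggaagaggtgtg
Snrpa1, chr7:66060086-66060335, plus strand: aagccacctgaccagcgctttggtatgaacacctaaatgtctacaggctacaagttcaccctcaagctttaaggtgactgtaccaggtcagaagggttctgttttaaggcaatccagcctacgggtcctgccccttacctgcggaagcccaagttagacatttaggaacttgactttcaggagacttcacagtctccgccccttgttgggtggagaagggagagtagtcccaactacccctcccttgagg
Snrnp200, chr2:127208136-127208385, plus strand: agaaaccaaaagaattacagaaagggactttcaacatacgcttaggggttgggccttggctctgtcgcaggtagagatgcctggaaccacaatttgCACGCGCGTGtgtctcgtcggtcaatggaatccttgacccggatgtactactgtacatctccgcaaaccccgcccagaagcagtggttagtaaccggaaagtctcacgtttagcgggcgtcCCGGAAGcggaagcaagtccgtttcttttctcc
Lsm5, chr6:56704700-56704949, minus strand: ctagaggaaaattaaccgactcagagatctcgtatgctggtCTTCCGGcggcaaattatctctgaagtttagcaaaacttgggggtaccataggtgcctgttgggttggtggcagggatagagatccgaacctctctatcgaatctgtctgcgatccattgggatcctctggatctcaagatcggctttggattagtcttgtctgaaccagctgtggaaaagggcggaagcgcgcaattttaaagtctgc
Snrpg, chr6:86371290-86371539, plus strand: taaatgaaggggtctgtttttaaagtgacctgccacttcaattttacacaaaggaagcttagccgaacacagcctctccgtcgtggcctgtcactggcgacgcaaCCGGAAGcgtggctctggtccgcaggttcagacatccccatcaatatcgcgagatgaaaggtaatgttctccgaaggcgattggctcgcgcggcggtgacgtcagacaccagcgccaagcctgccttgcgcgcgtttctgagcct

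In Snrpa, the E-boxes begin 73 and 32 bases before the start of transcription. In Snrnp200, CACGCG and CGCGTG begin 154 and 150 bases before the start and overlap, and CCGGAAG begins 33 bases before it. In Lsm5 and Snrpg, a CTTCCGG and a CCGGAAG begin 209 and 145 bases before the start. In Snrpa1 none of these motifs occurs in the window.

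Other genes of the pathway were counted from 2 lists. Of 52 further spliceosome genes, 44 had a negative log2FC, the median was -0.62 (-0.29 without control replicate 1), and 28 had treated libraries below both controls in FPKM (53.8%) against 25.4% of all genes. The median level of the list lay between 37.8 and 58.9 FPKM. That share of all genes was 38.5% at 30 to 100 FPKM and 50.3% at 100 FPKM or more. edgeR called 0 of them, with 13 at an unadjusted p under 0.05 and lower (25.0% against 10.1% of all genes). The DESeq2 calls held 3, Crnkl1, Ik and Casc3, all lower (5.77% against 3.17%). Crnkl1, of the Prp19-related proteins, had 156 and 74.4 FPKM in control and 37.6 and 47.5 FPKM in treated embryos. Magoh, of the exon junction complex, was at 2492 and 1554 FPKM against 1087 and 1229 FPKM, while its paralog Magohb was at 22.9 and 35.7 against 51.5 and 42.6 FPKM.

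The 18 genes for the assembly of snRNPs had a larger median difference, which was not tested against that of the core proteins. The SMN complex and the methylosome load Sm proteins onto snRNA in the cytoplasm, and Phax, Snupn and Tgs1 serve snRNA transport and cap modification. Of these genes, 15 had a negative log2FC and 15 had treated libraries below both controls (83.3%), against 25.4% of all genes. Among all genes at 30 to 100 FPKM the share was 38.5%, and at 100 FPKM or more 50.3%. Their median log2FC was -1.28, against -0.74 for the core proteins, and -0.61 against -0.36 without control replicate 1. edgeR called 0 of them, with 12 at an unadjusted p under 0.05 and lower (66.7% against 10.1% of all genes). The DESeq2 calls held Gemin2, Wdr77 and Clns1a, all lower (16.7% against 3.17%). Clns1a, the methylosome subunit that chaperones Sm proteins, had 175 and 67.2 FPKM in control and 22 and 30.3 FPKM in treated embryos, a log2FC of -2.43 by DESeq2 (adjusted p = 0.00191), and of -1.36 by edgeR without control replicate 1. Gemin6, Gemin7 and Gemin8, which form a module of the SMN complex, had a log2FC of 0.05, 0.36 and 0.23. Without control replicate 1 these were -0.15, 0.14 and -0.31, and only 1 of the 18 genes stayed above 0.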

How the data were processed

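Late two-cell embryos were sequenced in 2 control and 2 10074-G5-treated libraries. The authors aligned read pairs to mm10 with STAR (2.7.10), and obtained gene values with RSEM (1.3.3). Reads with several alignments were discarded, so that genes with copies elsewhere can lose reads. The deposited expected count is not normalized. The TPM and FPKM deposited by the authors are scaled to effective transcript length, and TPM served only to check the unit. The effective length was deposited as well.

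Expected counts were rounded. filterByExpr (minimum count 10, minimum total 15) left 13549 genes, tested with edgeR 4.0.16 (quasi-likelihood, robust, TMM factors from 0.873 to 1.06, R 4.3.3) with Benjamini-Hochberg adjustment over all of them. Standard errors are the coefficient over the square root of F. The study calls the replicates biological but names no separate cultures, so p-values measure the spread between libraries. Limits from counts cover counting error only. DESeq2 1.42.0 with effective lengths as offsets (lengths of 0 set to 1) and limma 3.58.1 on log2(FPKM + 1) were alternatives, and all 3 tools were tested on simulated data. The log2 CPM used a prior count of 2. Copies were sought with megablast among GENCODE M21 transcripts, and overlapping genes were not removed from the matches.

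The members, particles and lists were chosen with earlier results of these data known. Named genes are, in each group, the most abundant, the lowest and the highest by log2FC, and every gene with an unadjusted p under 0.05 or a DESeq2 call. Others named were chosen after their values were seen. One member is counted but not reported here by itself.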

Additional observations from a re-analysis of the deposited data

How the results depend on the processing

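With 2 libraries a group and control replicate 1 apart from the rest, sizes rest on that library more than directions do. edgeR called 0 genes lower and 0 higher, with 2013 of 13549 at an unadjusted p under 0.05, of which 12 were members. DESeq2 called 471 lower and 95 higher after the filter, 437 and 87 on every gene with any count, and 429 and 83 of the latter with transcript lengths, with 3 members lower each time, the same genes. Without the filter on low counts edgeR called 479 of 18208 genes lower and 165 higher, with 4 of the 59 members among the lower. The replicate number did not pair the libraries (correlation of deviations -0.03), and with it as a block edgeR called 32 lower and 12 higher, 0 members. With each library left out in turn, edgeR called from 0 to 2025 genes lower, from 0 to 2147 higher, from 0 to 25 members lower and from 0 to 1 higher. The highest counts came without control replicate 2, when the remaining control has no replicate and is assumed to vary like the treated libraries.

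Medians of the log2FC with each library left out ranged from -1.0 to -0.36 for the members, from -1.22 to -0.46 for the Sm ring, from -1.06 to -0.42 for the Lsm2 to Lsm8 ring, from -1.15 to -0.43 for U1, from -1.10 to -0.37 for U2, from -1.05 to -0.42 for the tri-snRNP and from -0.39 to -0.19 for the other members. On log2(FPKM + 1) without a filter they were -0.46 for U1, -0.48 for the tri-snRNP and -0.11 for the other members. The last was -0.16 on log2(FPKM + 1), on log2(FPKM + 0.1) and with library totals, which moved the median of all genes to 0.17. Over 15 alternatives, 50 of 58 members kept their direction. Ddx23 reached 0.51 under the block. With a library left out, log2FC values ranged from -0.06 to 0.32 for Lsm6, from -1.10 to 0.16 for Snrnp70, from -1.62 to 1.06 for Sf3a2, from -0.71 to 0.03 for U2af1, from -2.30 to 6.5 for Ddx23, from -1.07 to 0.06 for Prpf8, from -0.81 to 0.10 for Prpf19 and from -0.05 to 0.40 for Lsm14b. The cause was not tested.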
